A study of Prunus persica with 24 samples.

Results

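A set of 182 genes of stored peach fruit was listed lower in flesh kept at 35 °C than in flesh kept at 25 °C on day 2 of storage, and no longer by as much on days 3, 5, 6 and 7. They were chosen by these values from 26873 gene identifiers. The measure was the log2 of FPKM + 1, where FPKM (mapped fragments scaled by transcript length and by library size) allows levels of different genes to be compared. The temperature difference is the level at 35 °C minus that at 25 °C on the same day. Here 2-fold means a difference of 1 on this scale, which shrinks the ratios of low levels, so that a member can still be more than 2-fold lower in FPKM on a later day. Members had a difference of at most -1.5 on day 2 and above -1 on each of days 3, 5, 6 and 7. Of the 697 genes with a difference of at most -1.5 on day 2, 190 met the later bounds. Of these, 8 were left out because they were at least 2-fold higher on day 2 than on day 1 at 25 °C and at least 2-fold lower at 35 °C. None had to be left out (0 genes) for an exact 0 on day 2 at 35 °C beside at least 10 FPKM on all other days there. Among the 15420 genes that passed a filter on low values, 4.51% were as low on day 2 and 1.17% were members. The rule set no bound on day 1, when 18 of the members were already at least 2-fold lower at 35 °C (3.07% of the 15420 genes were), and no upper bound on the later days.

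The samples were flesh cells of Prunus persica fruit that had been held at 5 °C for 2 days after harvest and then divided at random between 25 °C and 35 °C. Total RNA was freed of ribosomal RNA and sequenced on days 1, 2, 3, 5, 6 and 7 of this storage, with 2 libraries per combination of temperature and day, of which there were 12. The sources used here do not give the cultivar, the number of fruit per library or whether libraries came from separate fruit. The deposited tables hold 1 value per gene for each combination, so no value below has a replicate error and no difference on a single day has a test.

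Peach is a climacteric fruit: after harvest it ripens with a burst of the hormone ethylene, breakdown of cell wall pectin, and shifts in colour, aroma and sugars, and many transcripts rise or disappear on the way. Temperature sets the pace of these processes, and heat above the usual ripening range is known to bring on heat shock proteins and to hold back parts of ripening. Transcript level at a given time reflects both synthesis and decay, so a transcript that disappears at 2 temperatures but sooner at one of them differs between them only for a while. The files do not pair the identifiers with gene names or functions, and 0 of the 26873 matched the RefSeq gene table used here. Members are therefore described by their levels and courses, a few of them by identifier, without roles or sequences, and the flesh label could not be checked against markers. In whole flesh, fewer cells of a type and less RNA per cell cannot be told apart.

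Summed FPKM lay between 651850 and 882184 per column, with 882184 at 25 °C and 769736 at 35 °C on day 2, and the read depth is unknown. A filter of at least 1 FPKM in at least 2 columns, after rescaling of the columns, left 15420 identifiers as the reference set. Of the 182 members 180 passed it. The median difference of the reference set on day 2 was 0.19 as deposited and 0.03 after rescaling, so that whole-column scaling moved it by more than 0.1. The members' median on day 2 was -1.91 as deposited and -2.04 after rescaling. All levels and differences below are as deposited.

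For most members the gap of day 2 closed on the side of 25 °C: the level there was lower on day 3, while the level at 35 °C was still about as low as on day 2. The medians of the 2 temperatures then came together below the day 2 level at 25 °C. This was not below day 1 in every member. From day 1 to day 3, 86 of the 182 members were at least 2-fold lower at 25 °C and 109 at 35 °C. In the reference set 8.51% and 12.4% were. From day 2 to day 3 the median step of the 182 members was -1.33 on the log2 scale at 25 °C and 0.14 at 35 °C. Median levels at 25 °C were 24.3 FPKM on day 1, 17.0 FPKM on day 2, 4.54 FPKM on day 3, 5.51 FPKM on day 5, 3.24 FPKM on day 6 and 4.56 FPKM on day 7. At 35 °C the medians were 28.4 FPKM, 3.32 FPKM, 4.92 FPKM, 11.4 FPKM, 3.47 FPKM and 6.42 FPKM in the same order. At 35 °C day 2 was the lowest of the 6 days in 75 of the 182 members. From day 3 to day 7, 98 of the 182 members came at 35 °C within 2-fold of, or above, their level of day 2 at 25 °C on at least 1 day, and 84 did not. In the reference set day 2 was the lowest at 35 °C in 12.6%, and 5.22% did not come back in this sense. The rule chose day 2 values that were low at 35 °C and high at 25 °C, which raises both counts, and nothing is read from the contrast.

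The difference on day 2 is the sum of the difference on day 1 and the step to day 2 at 35 °C, less the step at 25 °C. Members were put into 3 classes by these steps. In 124 members, 68.1%, the level at 35 °C was at least 2-fold lower on day 2 than on day 1. This is called the 35-low class here. Another 34 members, 18.7%, were at least 2-fold higher on day 2 than on day 1 at 25 °C and form the 25-high class. The remaining 24, or 13.2%, made neither step and form the small-step class. In the reference set, 1543 of 15420 genes, or 10%, were at least 2-fold lower on day 2 than on day 1 at 35 °C, and 3.82% were at least 2-fold higher at 25 °C. Because the rule used the values of day 2, higher shares among the members follow from the choice, and nothing is read from them.

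**Figure D1:**
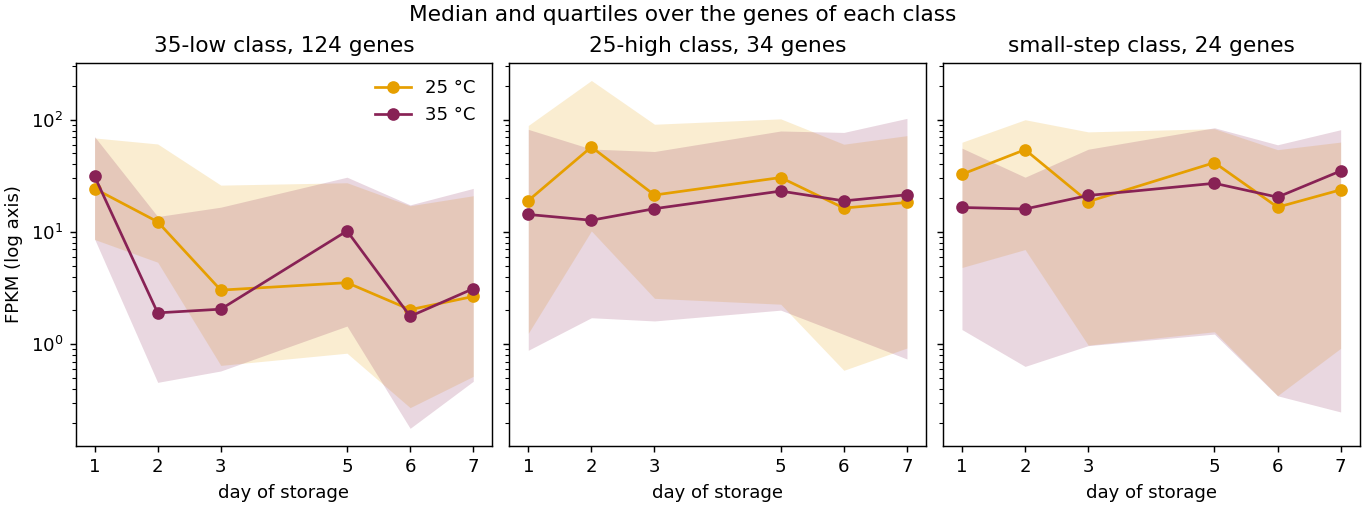
Levels by day of storage (FPKM, log axis) in the 3 classes, at 25 °C (orange) and 35 °C (purple). Points are medians over the genes of a class and bands run from the lower to the upper quartile. In the 35-low class both curves end near the same low level, from a median of 31.3 FPKM on day 1 to 3.12 FPKM on day 7 at 35 °C, with a peak of 10.2 FPKM on day 5, while in the 25-high class the day 2 peak at 25 °C stands out at 57.1 FPKM.

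The 35-low class was low on day 2 at 35 °C, and its median at 25 °C came nearer to that level on day 3. Its median at 35 °C was 31.3 FPKM on day 1, 1.90 FPKM on day 2 and 2.05 FPKM on day 3. At 25 °C the medians of the same days were 24.3 FPKM, 12.3 FPKM and 3.03 FPKM. From day 1 to day 3, 105 of the 124 genes were at least 2-fold lower at 35 °C and 77 at 25 °C, where the reference set had 12.4% and 8.51%. By day 7, 86 of the 124 were at least 2-fold below day 1 at 35 °C, 82 at 25 °C, and 79 at both temperatures. In the reference set 11.9% were so at 35 °C and 12.3% at 25 °C, and 7.44% at both. The levels of day 1 helped to form the class and can raise these counts, as a gene placed in it by a high value on day 1 is also likelier to be lower later.

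Prupe.5G108900 had the lowest difference of all members on day 2. It was listed at 252.1 FPKM on day 1 at 25 °C, then at 145 FPKM, 29.0 FPKM, 20.5 FPKM, 18.7 FPKM and 11.1 FPKM on days 2, 3, 5, 6 and 7. Its level at 35 °C was 386 FPKM on day 1 and 6.93 FPKM on day 2, followed by 19.0 FPKM, 35.9 FPKM, 10.9 FPKM and 29.0 FPKM. The day 2 difference of -4.21 arose from a step of -5.61 at 35 °C and of -0.79 at 25 °C. By day 3 the difference was -0.58, with a step of -2.29 at 25 °C and of 1.34 at 35 °C, so that both temperatures closed the gap.

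Prupe.7G141000, next in this class, had nearly equal levels on day 1, with 71.8 FPKM at 25 °C and 67.0 FPKM at 35 °C. On day 2 it stood at 17.0 FPKM and 0.121 FPKM, a difference of -4.01. A day later the levels were 0.439 FPKM and 0.457 FPKM. Over days 5, 6 and 7 the gene was listed at 3.45 FPKM, 0.873 FPKM and 2.67 FPKM at 25 °C, and at 4.34 FPKM, 0.430 FPKM and 2.11 FPKM at 35 °C. Both temperatures were thus low from day 3 on, and the difference stayed between -0.39 and 0.26 on those days.

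Abundant genes were found in the class too. The 2 members with the highest level on day 2 at 25 °C, Prupe.6G069400 and Prupe.3G269500, belonged to it and were singled out after their values were seen. Prupe.6G069400 was listed at 1498 FPKM, 1136 FPKM, 67.8 FPKM, 81.7 FPKM, 6.38 FPKM and 27.3 FPKM over the 6 days at 25 °C. At 35 °C its values were 1138 FPKM, 135 FPKM, 45.4 FPKM, 113 FPKM, 5.24 FPKM and 13.7 FPKM. Its level was lower by day 2 at 35 °C and by day 3 at 25 °C, and it stayed low at both. Prupe.3G269500 took another course, with a dip on day 2 at 35 °C alone. At 35 °C it was at 1085 FPKM on day 1, 294 FPKM on day 2 and 819 FPKM on day 3, and then at 1163 FPKM, 570 FPKM and 1539 FPKM. Its levels at 25 °C were 667 FPKM, 1037 FPKM, 557 FPKM, 696 FPKM, 282 FPKM and 479 FPKM.

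**Figure D2:**
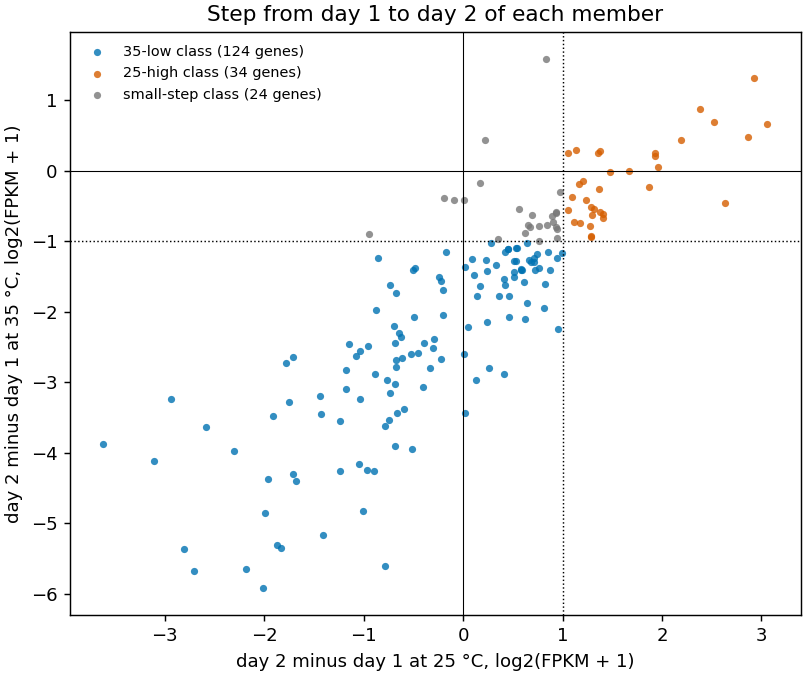
Step from day 1 to day 2 at 25 °C (horizontal) and at 35 °C (vertical), on the scale of log2(FPKM + 1), for the 182 members. Each point is a gene, and dotted lines mark the 2-fold steps that define the classes: 124 genes lie below the horizontal line and 34 to the right of the vertical line, and the corner holding both is empty because the rule left such genes out.

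The 25-high class was by its definition higher on day 2 than on day 1 at 25 °C. In 31 of its 34 genes day 2 was the highest of the 6 days there, and in 14.2% of the reference set, a contrast that the choice of the class fixes. The median level at 25 °C was 19.0 FPKM on day 1, 57.1 FPKM on day 2 and 21.3 FPKM on day 3, and the levels at 35 °C were 14.3 FPKM, 12.7 FPKM and 16.1 FPKM. Between day 1 and day 3 the median step was 0.06 at 25 °C and -0.24 at 35 °C. On day 7, 29 of the 34 genes were within 2-fold of their day 1 level at 25 °C, and 27 were so at 35 °C. The shares of the reference set were 83.1% and 79.6%. The levels of day 1 helped to form this class and the 35-low class, so no contrast between them is read from these counts. The gap of the 25-high class was not fully closed on day 3, when the median difference was still -0.73. For days 5, 6 and 7 it was -0.30, 0.29 and 0.28.

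Prupe.7G051800 had the lowest day 2 difference of the 25-high class, -3.61. Its levels at 25 °C were 1.24 FPKM on day 1, 12.9 FPKM on day 2 and 1.09 FPKM on day 3. Days 5 to 7 ranged from 0.177 FPKM to 0.239 FPKM. Its first 3 values at 35 °C were 0.561 FPKM, 0.133 FPKM and 0.412 FPKM, and it had 0.128 FPKM on day 5, 0.238 FPKM on day 7 and a listed 0 on day 6. Day 2 at 25 °C was the one column above 2 FPKM.

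Prupe.1G552600, the next in this class, had a peak at each temperature, a day apart. From day 1 to day 7 its levels at 25 °C were 17.4 FPKM, 70.7 FPKM, 4.37 FPKM, 5.35 FPKM, 0.546 FPKM and 1.67 FPKM. At 35 °C the values were 7.72 FPKM, 8.07 FPKM and 25.9 FPKM, then 3.47 FPKM, 2.14 FPKM and 1.24 FPKM. The highest level at 25 °C was that of day 2 and the highest at 35 °C that of day 3. Its difference was accordingly -2.98 on day 2 and 2.32 on day 3, the highest of any member on day 3.

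In the small-step class neither step to day 2 reached 2-fold in the direction that defines the other classes, and in part of it the gap was there on day 1. The median step to day 2 was 0.72 at 25 °C and -0.69 at 35 °C, and the median difference was -0.38 already on day 1. On day 1, 8 of the 24 genes were at least 2-fold lower at 35 °C. Over all 182 members 18 were at least 2-fold lower and 10 at least 2-fold higher at 35 °C on day 1, where the reference set had 3.07% and 0.863%. The members' median difference on day 1 was -0.06 and that of the reference set 0.04. The difference of day 1 was not bounded by the rule, but it enters the difference of day 2 by addition.

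Prupe.4G146400 was such a gene, with 15.4 FPKM at 25 °C and 0.918 FPKM at 35 °C on day 1. On day 2 the levels were 7.46 FPKM and 0.0356 FPKM, followed by 0.0678 FPKM and 0.169 FPKM on day 3. It remained at or under 0.448 FPKM on days 5 to 7 at both temperatures. The differences of day 1 and day 2 were -3.09 and -3.03, so that its gap was not one of day 2 alone. Prupe.7G051200 had 4.87 FPKM on day 1 at 25 °C, 8.36 FPKM on day 2 and 0.125 FPKM on day 3. At 35 °C it had 2.07 FPKM, 0.760 FPKM and 0.324 FPKM. A 0 was listed on the last day at 25 °C, while at 35 °C this was so on days 5 and 6. The remaining values were 0.520 FPKM on day 5 and 0.121 FPKM on day 6 at 25 °C, and 0.152 FPKM on day 7 at 35 °C.

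**Figure D3:**
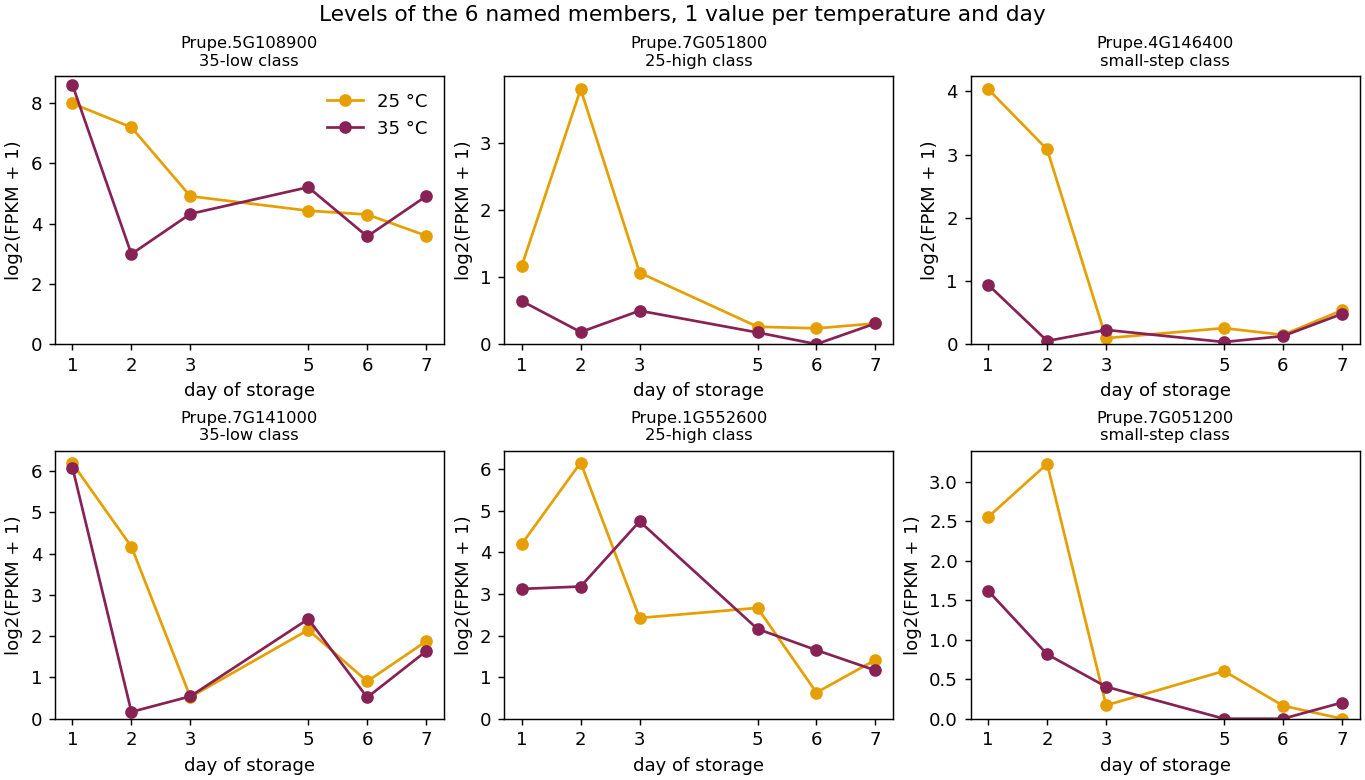
Levels of the 6 members named by rule, as log2(FPKM + 1) against day of storage, at 25 °C (orange) and 35 °C (purple). Each point is 1 deposited value without an error, and vertical axes differ between panels. The curves lie farthest apart on day 2 in 5 of the 6 panels, with differences from -4.21 to -2.41, while Prupe.4G146400 was about as far apart on day 1.

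How the gap closed was then read from the step between day 2 and day 3. The rule fixes that the difference has to shrink, but not at which temperature. The level at 25 °C was at least 2-fold lower on day 3 than on day 2 in 133 of the 182 members, or 73.1%. A level at 35 °C at least 2-fold higher on day 3 than on day 2 was seen in 15 members, or 8.24%. Both steps were made by 8 of these genes, the step at 25 °C alone by 125, the step at 35 °C alone by 7, and 42 made neither. In the reference set 4.35% of genes were at least 2-fold lower at 25 °C and 2.22% at least 2-fold higher at 35 °C over this step. The rule asks for a high value at 25 °C and a low one at 35 °C on day 2 and so favours both of these steps back, and the shares are a description.

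The step at 25 °C alone was the most frequent one in each class, with 88 of 124 genes in the 35-low class, 26 of 34 in the 25-high class and 11 of 24 in the small-step class. A return at 35 °C was rarer, with 9, 2 and 4 genes when the genes that made both steps are included. On day 3 at 25 °C, 143 of the 182 members were within 2-fold of their level on day 2 at 35 °C. Another 36 were at least 2-fold above it, and the median of this difference was 0.61. In the reference set, 86.2% were within 2-fold and 5.88% at least 2-fold above. The share within 2-fold differed with the mean level over all columns, for a reason that was not tested. The scale shrinks the ratios of low levels, and the mean contains both levels compared, so the split and the share are not independent. The share was 57 of 64 members with a mean under 5 FPKM and 59 of 73 from 5 to 50 FPKM. With a mean of at least 50 FPKM it was 27 of 45, or 60.0%, against 79.3% of such reference genes. No share was computed for reference genes with lower means. In the 35-low class 92 of 124 genes were within 2-fold and 29 at least 2-fold above, with a median of 0.53. The level on day 3 at 25 °C was thus in the median above that of the day before at 35 °C.

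**Figure D4:**
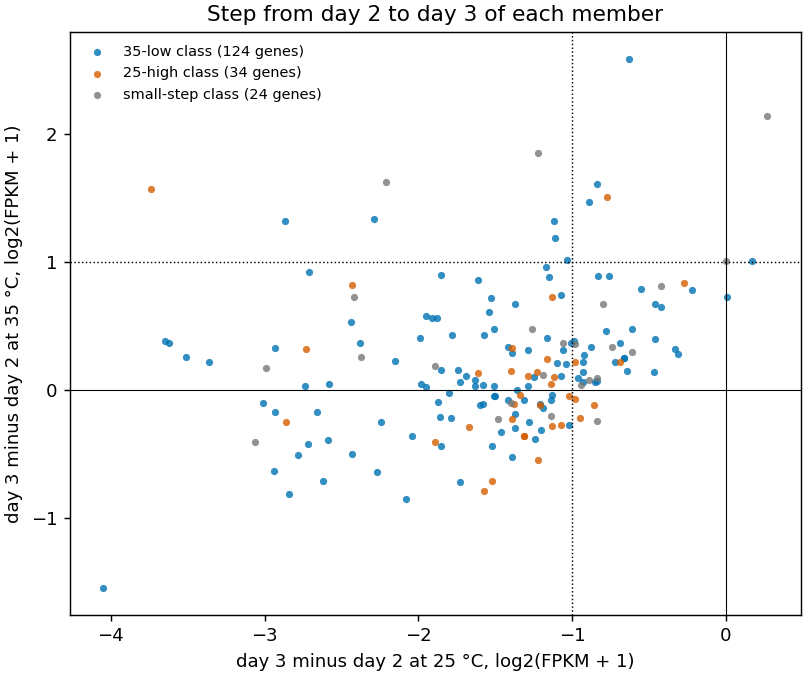
Step from day 2 to day 3 at 25 °C (horizontal) and at 35 °C (vertical), on the scale of log2(FPKM + 1), for the 182 members in the colours of their classes. Dotted lines mark 2-fold steps. The points spread to the left along the horizontal axis, with 133 genes at or left of the vertical dotted line and 15 at or above the horizontal one.

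Other genes were as low on day 2 and did not meet the later bounds. These are the 507 genes with a difference of at most -1.5 on day 2 and of at most -1 on at least 1 of days 3, 5, 6 and 7. At 25 °C, 243 of them, or 47.9%, were at least 2-fold lower on day 3 than on day 2, against 73.1% of the members. At 35 °C, 37 of them, or 7.30%, were at least 2-fold higher on day 3 than on day 2, against 8.24%. The level at 35 °C had been at least 2-fold lower on day 2 than on day 1 in 66.5% of the 507 and 68.1% of the members. The 507 still hold genes that were also at least 2-fold higher on day 2 at 25 °C, which the members leave out. Of the 507, 291, or 57.4%, were so lower at 35 °C without being so higher at 25 °C. The genes that made both steps still count among the 507 in this share, so it is not like the members' share. The 2 sets were separated by this exclusion and by their differences on days 3 to 7, which contain the level at 25 °C on day 3. Their contrast is a description and was not tested.

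After day 3 the members' differences spread around 0. The median difference was -0.38 on day 3 and -0.07, -0.02 and 0.02 on days 5, 6 and 7. Differences within 0.5 of 0 were found in 45.6% of the members on day 3, and in 52.7%, 73.1% and 62.6% on days 5, 6 and 7. The reference set had 59.8%, 59.1%, 63.9% and 65.6%, so that a difference near 0 was more frequent among the members on day 6 and less frequent on the other 3 days. The members' differences on these days are bounded from below by the rule and those of the reference set are not, so nothing is read from this contrast. Upwards the members' differences were free, and 48 members, or 26.4%, were at least 2-fold higher at 35 °C on at least 1 of the 4 days. Of the 13212 reference genes that met the same later bounds, 16.5% were.

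Day 5 held most of these higher values. On that day 32 members were at least 2-fold higher at 35 °C, all 32 of them in the 35-low class, compared with 7 members on day 3, 5 on day 6 and 13 on day 7. The reference set had 6.17% such genes on day 5, and for days 3, 6 and 7 the shares were 6.49%, 6.25% and 6.32%. At 35 °C, 37 members were at least 2-fold higher on day 5 than on both day 3 and day 6, or 20.3%, and 36 of these belonged to the 35-low class. In the reference set 1.50% showed such a peak, and 0.848% of those that met the later bounds. At 25 °C the same peak was seen in 5 members, and 0.966% of the reference set. Among the 507 genes described above, 17.0% had it at 35 °C. The peak rests on 1 column, and its tie to that column was not tested.

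Prupe.1G129000, singled out after its values were seen, had the largest difference of any member on day 5, at 3.85. At 35 °C it stood at 54.1 FPKM on day 1, 0.943 FPKM on day 2, 1.86 FPKM on day 3, 47.3 FPKM on day 5, 2.09 FPKM on day 6 and 1.32 FPKM on day 7. At 25 °C its levels were 23.5 FPKM, 11.2 FPKM, 2.24 FPKM, 2.36 FPKM, 1.19 FPKM and 1.50 FPKM. The level on day 5 at 35 °C was close to that of day 1 and more than 10-fold above those of the days on either side.

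**Figure D5:**
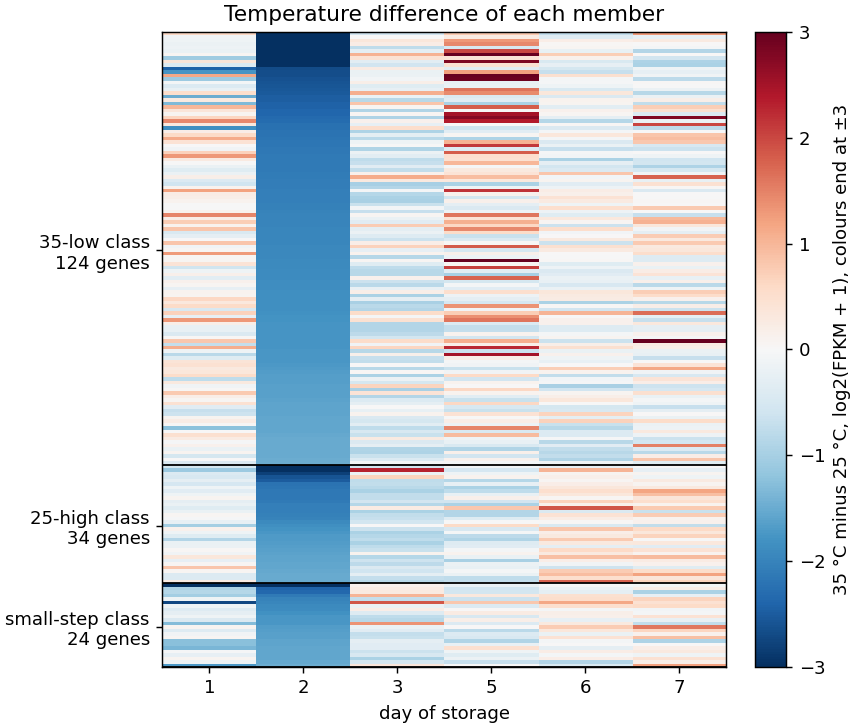
Temperature difference (35 °C minus 25 °C, log2(FPKM + 1), red for higher and blue for lower at 35 °C) of the 182 members, one per line, by day of storage, with lines between the 3 classes. The blue column of day 2 is what the rule chose. Red lines on day 5 lie in the 35-low class, where 32 genes are at least 2-fold higher at 35 °C.

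Members covered a wide range of levels. On day 2 at 25 °C they ran from 1.97 FPKM to 1136 FPKM. Under 5 FPKM were 37 members, 80 lay from 5 to 50 FPKM, 59 from 50 to 500 FPKM and 6 at 500 FPKM or more. The shares were 20.3%, 44.0%, 32.4% and 3.30%, against 38.1%, 46.5%, 13.9% and 1.50% of the reference set. Because 1 is added to each value before the log is taken, the rule cannot be met from the lowest levels on day 2 at 25 °C. It so keeps the lowest genes out. The larger shares of members at 50 FPKM or more were not tested.

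Lasting low levels were mostly those of the less abundant members. Split by the mean over all 12 columns, 5 of the 45 members whose mean was 50 FPKM or more were at least 2-fold lower on day 7 than on day 1 at both temperatures. With a mean of 5 to 50 FPKM the number was 34 of 73, and with a mean under 5 FPKM it was 44 of 64. A gene that stays low also has a low mean, so the split and the count are not independent. For the 2405 reference genes whose mean was 50 FPKM or more the share was 5.95%. No such share was computed for reference genes with lower means, so the counts of the less abundant members have no background.

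The change over later storage was tested on the mean of both temperatures on days 3, 5, 6 and 7, of which the rule bounds the difference and not the mean. A slope per day was fitted with limma over the 8 columns of these days, with temperature as a term and the spread of the columns around the line as the error. No gene was called, with 0 of 180 members and 0 of 15420 genes at a limma adjusted p under 0.05. The smallest limma adjusted p was 0.0874. An unadjusted p under 0.05 was reached by 15 of the 180 members, or 8.33%, and by 5.99% of all genes tested. Of the 15 slopes, 11 were negative and 4 positive, and the members' median slope was -0.00 per day, with 91 of 180 slopes negative. Leaving out day 3 moved this median more than leaving out day 5, 6 or 7. Without day 3 it was -0.11 per day with 140 of 180 slopes negative, or 77.8%, against 49.5% of all genes tested. Without day 6 it was 0.04 per day with 68 of 180 slopes negative, or 37.8%, against 52.3% of all genes tested. The mean of days 5, 6 and 7 minus day 3 had a median of 0.18 and was negative in 50 of the 180. None of these fits called a member (0 of 180). In simulated data of 15420 genes the fit recovered 80.0% of slopes of 0.5 per day. Of those of 0.25 per day it recovered 23.0%, so that shallow slopes could be missed. The simulated slopes were placed on genes drawn at random, with noise independent between columns. Recovery among the members was not simulated, so steeper slopes of theirs could be missed too.

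When days 1 and 2 were added, 33 of the 180 members had a slope with a limma adjusted p under 0.05, or 18.3%, against 8.31% of all genes tested. Of these 32 fell and 1 rose. The background was 6.56% for genes that fell and 1.76% for genes that rose. This fit uses the columns of day 2 by which the members were chosen, and the day 1 values that take part in the exclusion. It is therefore not independent of the rule, and nothing is read from the members' share. Of the 6 members named by rule, Prupe.1G552600 fell by 0.55 per day (limma adjusted p = 0.0268) and Prupe.7G051200 fell by 0.35 per day (limma adjusted p = 0.0315). Both genes were named by their day 2 values, which this fit uses, so nothing is read from their calls either. On days 3 to 7 alone their slopes were -0.63 ± 0.15 (SE, 8 columns, limma adjusted p = 0.262) and -0.05 ± 0.05 (limma adjusted p = 1). P-values of both fits measure the spread between days, not between fruit.

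The identifiers of the members were spread over the numbering. Of the 182, 51 begin with Prupe.1G, 24 with Prupe.6G, 21 each with Prupe.5G and Prupe.7G, and 14 to 17 with each of the other 4 numbered series. Another 2 bear an identifier without such a number, as do 22 of the reference genes. The share of Prupe.1G was 28.0% among the members and 23.1% in the reference set. A further member within 5 identifiers on either side was found for 21 members, or 11.5%, and a member was as near for 6.40% of the reference genes that were no members. One pair, Prupe.2G075700 and Prupe.2G075800, shared every value, for a reason that was not tested, and is 1 measurement of uncertain level. The counts here hold both identifiers, and with identical values counted once there were 181 members.

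Members near the thresholds differed little from genes that missed them. Just inside the day 2 threshold were Prupe.7G023700, with 8.16 FPKM at 25 °C and 2.23 FPKM at 35 °C on day 2, and Prupe.1G023600, with 2.63 FPKM and 0.278 FPKM, both at a difference of -1.504. Just outside were Prupe.5G244500, with 10.7 FPKM and 3.14 FPKM at a difference of -1.495, and Prupe.8G201000, with 9.92 FPKM and 2.88 FPKM at -1.494. Prupe.7G023700 closed its gap at 35 °C, where it was listed at 13.2 FPKM on day 3 beside 10.1 FPKM at 25 °C. In all, 34 members had a day 2 difference above -1.6. The lowest later difference was -0.9 or less in 32 members, and 25 genes that were low enough on day 2 missed the later bound by less than 0.1. On day 2 at 35 °C, 3 members were listed at 0, all below 3 FPKM in each column.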

How the data were processed

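RNA was measured in peach flesh in 24 libraries, 2 for each of 12 combinations of temperature and day. The authors deposited FPKM in 2 tables, one per temperature, with 1 column per day, per the file headers; the sources used here do not state how libraries were combined or whether the tables were scaled together. Per the submitters' processing notes the tools included Cufflinks 2.1.1, TopHat2 2.0.10 and Bowtie2 2.1.0, without stated roles. The sources used here give neither build nor annotation. Read depth is unknown, so no counting error can be given.

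The 29300 rows were summed to 26873 identifiers. Differences are in log2(FPKM + 1), a scale that shrinks those of low genes. The slope was fitted with limma 3.58.1 in R 4.3.3 (mean trend, Benjamini-Hochberg over 15420 genes, called under 0.05) after median-of-ratios rescaling over 12194 identifiers (factors 0.922 to 1.06), and was tested on simulated data. Other values were computed in Python 3.11.15. Named genes are, in each class, the 2 with the lowest day 2 difference among those with at least 5 FPKM on day 2 at 25 °C, the 2 on either side of the threshold, and, for slopes, the steepest 2 called each way, of which there were none (0). The members, classes and tests were chosen with earlier results of these data known. Lists by product description were not applied, because no identifier has one here.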

Additional observations from a re-analysis of the deposited data

How the results depend on the processing

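The number of members moved with the settings of the rule: 296 with a pseudocount of 0.1 (113 of the 182 among them), 310 and 120 with the day 2 threshold 0.25 nearer to 0 or 0.25 farther from it, 64 with -0.5 on later days and 118 with a mean of at least 5 FPKM. Rescaled columns gave 243 (174 of the 182) and quantile normalization 244 (159 of the 182). The median difference on day 3 was -0.60 with a pseudocount of 0.1. With steps of 0.75 the 25-high class had 54 genes and the small-step class 7, and with steps 0.25 larger than 1 the latter had 48. The gap closed at both temperatures in 19 genes with steps of 0.75 and in 26 with a pseudocount of 0.1, and at neither in 16 with steps of 0.75 and 23 after rescaling. The step at 25 °C alone stayed the most frequent with steps of 0.75, after rescaling and with a pseudocount of 0.1, at 114 to 144 genes. These counts, like those of the classes, are of the 182 members, for which the rule was not applied anew. Over all genes, slopes called by limma numbered 2 with no filter, 5 for days 5, 6 and 7 minus day 3, 1282 (33 members) with all 6 days and 2 without day 7. Named slopes turned negative with all 6 days in Prupe.7G141000 (-0.52) and Prupe.4G146400 (-0.32), without day 3 in Prupe.7G141000 (-0.28) and without day 7 in Prupe.4G146400 (-0.01). That of Prupe.7G051800 turned positive without day 3 (0.04). With all 6 days those of Prupe.1G552600 (-0.55) and Prupe.7G051200 (-0.35) were called, in a fit that uses the day 2 values by which they were named. The causes were not tested. No paired analysis was possible because each group has 1 column for both libraries, and no replicate could be left out. Read depth, and what it limits, is unknown.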
